A study of Mus musculus with 27 samples.

Results

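The genes described here are 9 transcription factors that set and maintain the microglial state: Spi1, Irf8, Sall1, Mef2c, Mef2a, Runx1, Maf, Cebpa and Bhlhe41. They are known regulators of microglial identity, taken as a list of symbols and found by symbol in 2 tables of counts per gene, where all 9 were present among 53412 and 55421 gene identifiers. All 9 also passed the filter on low counts, which left 14579 and 15921 genes for testing.

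The cells were CD11b+ cells, sorted for the surface integrin that Itgam encodes, from the prefrontal cortex (PFC) and hippocampus (HC) of mice whose strain is labelled C57BJ6; age and sex are not used here. In the minocycline experiment a naive control group (NAIVE, 2 libraries in each region) was set beside chronic unpredictable mild stress (CUMS, varied mild stressors given in an unpredictable order to model depression, 2 libraries in PFC and 3 in HC) and CUMS with minocycline, a tetracycline antibiotic (CUMS_M, 3 in each region). In the enrichment experiment all mice carried CUMS, with vehicle (VEH, 3 libraries in each region) or with environmental enrichment (EE, 3 in each region), so that it has no unstressed group. CD11b marks myeloid cells in general, so the sort is not one for microglia alone, and the labels do not say whether libraries of a group came from separate mice, so that p-values measure the spread between libraries.

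Microglia descend from yolk sac progenitors and keep their identity through a small set of DNA-binding proteins. PU.1, the ETS factor encoded by Spi1, opens myeloid enhancers together with IRF8 and RUNX1, and C/EBP alpha acts beside PU.1 in the wider myeloid lineage. SALL1, the MEF2 factors, MAF and BHLHE41 act in the mature cell, where they hold microglia apart from other macrophages or restrain their activation.

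Promoter windows from RefSeq (GRCm38.p6), 250 bases before to 50 bases after a transcription start, were matched for 7 of the 9 genes and gave 13 windows, since several genes have more than 1 start. The windows were searched on both strands for 6 motifs: GAGGAA, the core that PU.1 and other ETS proteins bind, the RUNX motif TGTGGT, the C/EBP motif TTGCNNAA, the MEF2 motif AAAAATAG, the MAF motif TGCTGA and the E-box CACGTG. No matches overlapped in these windows. GAGGAA was found in 4 of the 13 windows (30.8%), which belong to Mef2c, Mef2a and Runx1, and in 28.3% of all 32851 windows of the same length, so that its share among these genes is near that of promoters at large. Of the windows with GAGGAA, 1 is shown for each gene, because Runx1 gave the smallest p-value of the 9 genes and Mef2a and Mef2c recognise the same site. Capitals mark GAGGAA, its reverse complement TTCCTC, or AAAAATAG.
Mef2a, chr7:67372809-67373108, minus strand: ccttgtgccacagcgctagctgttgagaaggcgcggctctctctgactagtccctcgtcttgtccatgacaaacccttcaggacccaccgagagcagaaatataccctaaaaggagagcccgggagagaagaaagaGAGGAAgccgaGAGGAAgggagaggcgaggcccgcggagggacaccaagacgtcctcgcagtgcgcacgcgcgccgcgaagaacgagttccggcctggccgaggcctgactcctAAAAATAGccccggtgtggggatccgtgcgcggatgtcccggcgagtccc
Mef2c, chr13:83503784-83504083, plus strand: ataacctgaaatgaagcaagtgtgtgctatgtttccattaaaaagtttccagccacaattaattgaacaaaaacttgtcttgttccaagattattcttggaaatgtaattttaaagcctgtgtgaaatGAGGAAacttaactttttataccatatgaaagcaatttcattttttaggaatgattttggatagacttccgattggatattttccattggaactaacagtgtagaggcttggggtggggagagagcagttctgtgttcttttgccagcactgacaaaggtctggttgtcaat
Runx1, chr16:92697280-92697579, minus strand: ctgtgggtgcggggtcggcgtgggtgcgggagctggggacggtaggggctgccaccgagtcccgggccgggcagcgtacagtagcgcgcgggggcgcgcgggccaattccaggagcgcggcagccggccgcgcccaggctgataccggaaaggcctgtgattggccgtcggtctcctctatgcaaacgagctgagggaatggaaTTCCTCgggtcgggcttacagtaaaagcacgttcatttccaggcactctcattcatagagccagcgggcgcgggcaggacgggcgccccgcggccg
In Mef2a the GAGGAA matches began 114 and 103 bases before the start, and AAAAATAG, found in 1.49% of all windows, began at the start itself. In Mef2c the match began 122 bases before the start, and in Runx1, on the opposite strand, 46 bases before it. Of the windows not printed, another of Mef2c held GAGGAA 186 bases before its start. TGCTGA, found in 19.5% of all windows, was in 1 window of Irf8 and another of Mef2c. The second Runx1 window held TGTGGT at 2 places and CACGTG once, and Bhlhe41 held CACGTG once; all windows held these 2 motifs in 16.8% and 7.15%. TTGCNNAA, in 10.8% of all windows, had no match in the 13. A match is only a run of letters, and no binding was measured in these samples.

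Depth was 7.87 to 15.3 M counts per library in the minocycline table and 19.5 to 23.9 M in the enrichment table, and each of the 9 genes had at least 1388 counts in every library. Levels are given as CPM, counts scaled to a TMM-corrected library of 1 M. Depth and scaling differed by group in PFC. The NAIVE libraries held 7.87 and 8.20 M counts, with TMM factors of 0.973 and 0.990. The CUMS libraries held 12.4 and 10.6 M, with factors of 1.05 and 1.02. The defining microglial markers were high throughout: over the 27 libraries Csf1r ran from 10858 to 17520 CPM, Cx3cr1 from 6809 to 9988, Tmem119 from 2511 to 5248, P2ry12 from 2522 to 5208 and Itgam from 461 to 637. Genes of the choroid plexus, an epithelium that lies beside the hippocampus, did not follow the region labels. Their 6 genes summed to 558 to 1915 CPM in the 8 HC libraries of the minocycline table and to 1.19 to 2.61 CPM in 6 of its 7 PFC libraries, but to 605 CPM in PFC CUMS_M 3. In the enrichment table PFC VEH 1 and PFC EE 1 held 0.446 and 11.7 CPM and the other 4 libraries labelled PFC held 230.1 to 1133. There HC VEH 1 and HC VEH 2 held 0.566 and 1.01 CPM, and the other 4 libraries labelled HC held 209.8 to 1979. With a limit of 100 CPM, 6 of the 12 enrichment libraries and 1 of the 15 minocycline libraries went against their region label. Values are given with all libraries and, for each factor in EE against VEH, also without those 6 enrichment libraries.

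By level per length, in RPKM (CPM per kilobase of annotated exon), the 9 factors kept nearly the same order in all 10 groups. Sall1, a zinc finger repressor particular to microglia within the brain, and Cebpa were the highest. Sall1 had medians of 272 RPKM in the minocycline table and 309 in the enrichment table, and Cebpa 248 and 278. Spi1 held rank 3 in every group, at medians of 167 and 140 RPKM. Irf8 and Maf followed, at 101 and 102 RPKM in the minocycline table and 102 and 92.4 in the enrichment table, and exchanged places between groups. Mef2a came next at 35.9 and 38.4 RPKM. Mef2c and Bhlhe41 shared ranks 7 and 8, with Mef2c at 24.6 and 28.8 RPKM and Bhlhe41 at 26.9 and 20.9, and Runx1 was the lowest in every group at 14.7 in both tables. The libraries of neighbouring ranks overlapped for Sall1 and Cebpa in 5 of the 10 groups and for Irf8 and Maf in 7, so their order is not resolved there; Mef2c and Bhlhe41 overlapped in the 3 PFC groups of the minocycline table, and Mef2a and Bhlhe41 in HC NAIVE. The tables were scaled separately and come from separate experiments, so differences in level between them were not tested.

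**Figure D1:**
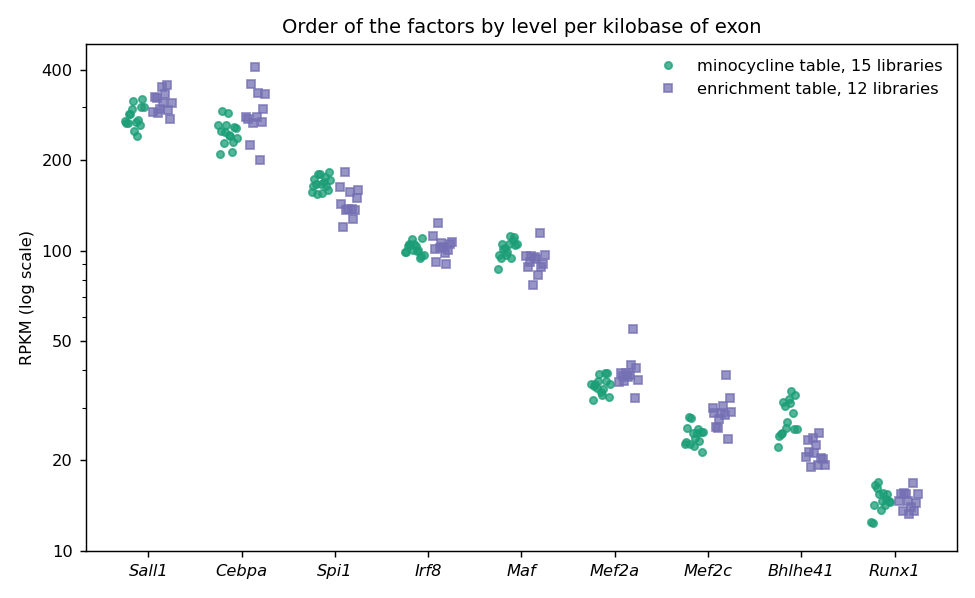
Level per kilobase of exon (RPKM, log axis) of the 9 factors, with 1 point per library: circles for the 15 libraries of the minocycline table and squares for the 12 of the enrichment table. Sall1 and Cebpa lie at the top, Spi1 below them and Runx1 at the bottom in both tables.

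The factors varied little between libraries. The coefficient of variation over the 15 minocycline libraries was 4.50% for Irf8, the steadiest, and 13.3% for Bhlhe41, the most variable, with a median of 7.67% over the 9 genes. The median over all 14579 tested genes was 18.3%, and over the 1977 genes with a mean above 100 CPM, where all 9 factors lie, it was 9.19%. In the enrichment table the 9 genes ran from 7.33% for Runx1 to 19.6% for Cebpa with a median of 9.79%, beside 10.8% over the 2137 genes above 100 CPM. A low spread is thus shared with other genes of such levels.

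None of the 9 factors passed an adjusted p of 0.05 in any of the 13 contrasts by the edgeR quasi-likelihood test, which left 0 of 117 values called. Of the 117, 9 had an unadjusted p under 0.05. Over all tested genes such p-values numbered from 331 of 15921 to 2766 of 14579 in a contrast, so the 9 are not read as a result about these factors. The background differed widely between contrasts. In PFC, 0.816% of tested genes were called for CUMS against NAIVE, 0.0206% for CUMS_M against CUMS and 0.0892% for CUMS_M against NAIVE. In HC the shares were 0% for CUMS against NAIVE, 0.00686% for CUMS_M against CUMS and 0% for CUMS_M against NAIVE. EE against VEH gave 0% in each region, HC against PFC gave 5.1% in the minocycline experiment and 0% in the enrichment experiment, and the difference between regions gave 0% for CUMS, 0.00686% for minocycline and 0% for EE. Beside shares so low, a count of 0 among 9 genes is no different from the background and is not a result about these factors. Where edgeR called 0 genes, 331 to 1652 genes had an unadjusted p under 0.05, counts that include those expected at that threshold without any difference. There the DESeq2 Wald test called 1 gene for HC CUMS against NAIVE, 1 for HC CUMS_M against NAIVE, 17 for PFC EE, 441 for HC EE, 0 for HC against PFC in the enrichment experiment, 27 for the CUMS difference between regions and 0 for that of EE.

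Each interval describes 1 value in the main edgeR fit and is not adjusted for the number of intervals. Alternative fits can fall outside them. Bhlhe41 for PFC CUMS against NAIVE was -0.69 with a covariate of other-cell markers, below the lowest interval bound of -0.60. Of the 72 edgeR 95% intervals of the 8 treatment contrasts, 39 lay wholly within a 1.25-fold change, 69 within 1.5-fold and 72 within 2-fold. The 3 that passed 1.5-fold were Runx1 and Bhlhe41 for PFC CUMS against NAIVE and Cebpa for PFC EE against VEH. The fitted log2 fold changes ran from -0.38 to 0.41.

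**Figure D2:**
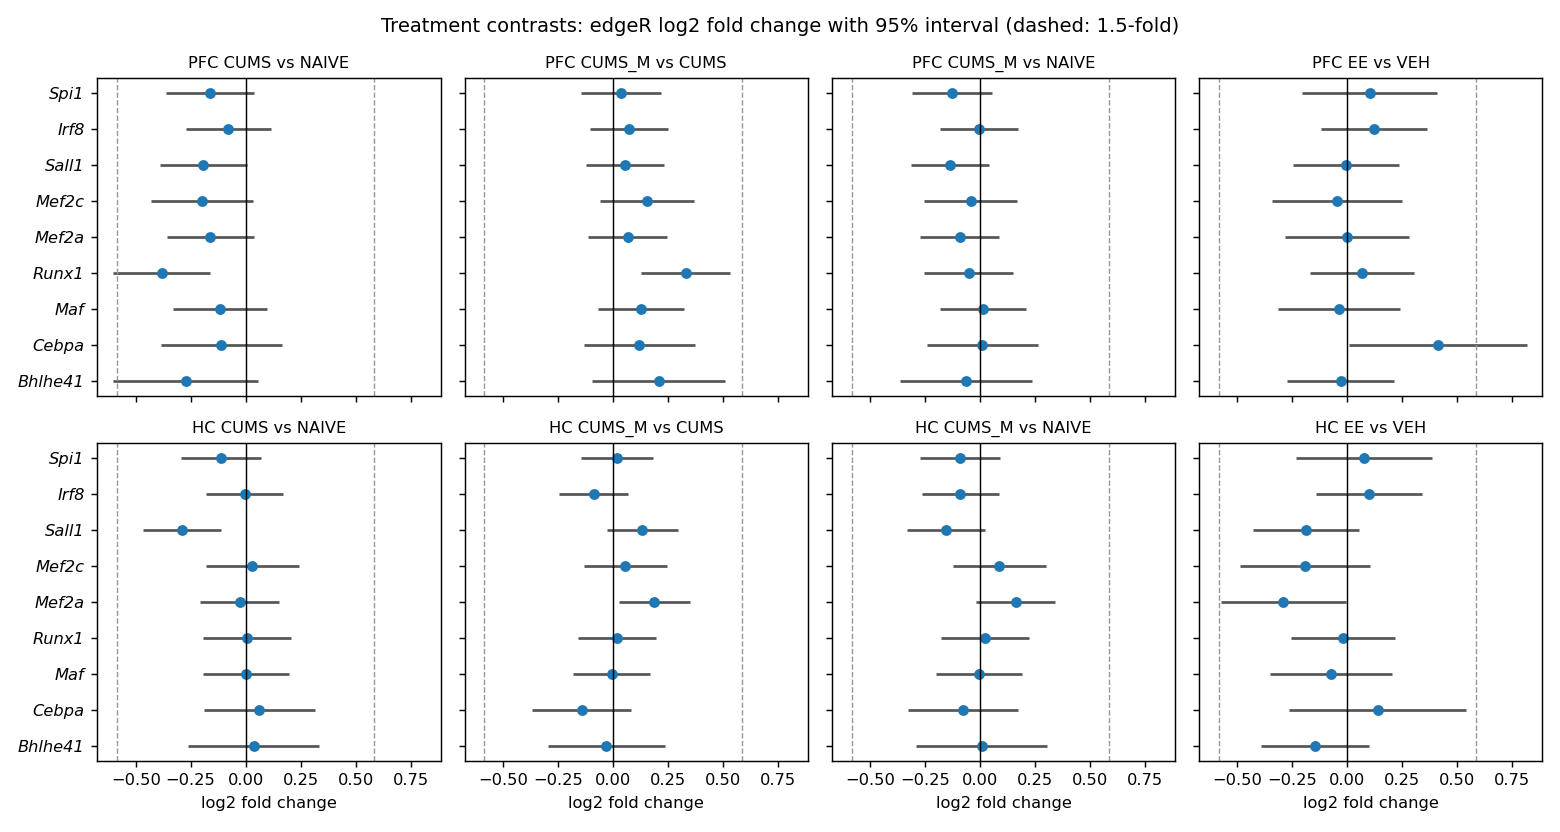
Log2 fold change of each factor in the 8 treatment contrasts (points) with the 95% interval of the edgeR fit (bars); dashed lines stand at a 1.5-fold change in either direction. Runx1 lies farthest below 0 in PFC CUMS against NAIVE at -0.38 and Cebpa farthest above it in PFC EE against VEH at 0.41, and no value passed an adjusted p of 0.05.

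Spi1 encodes PU.1, without which microglia do not form. Its level was 484 and 485 CPM in the PFC NAIVE libraries, 424 and 442 in PFC CUMS, and 468, 447 and 417 in PFC CUMS_M. The CUMS libraries lay below both NAIVE libraries, with a log2 fold change of -0.16 ± 0.10 (SE) that did not pass (edgeR adjusted p = 0.471) and was -0.26 with a covariate of other-cell markers and -0.09 without TMM. In HC the values were 493 and 462 CPM in NAIVE, 449, 419 and 457 in CUMS, and 472, 442 and 428 in CUMS_M, and CUMS against NAIVE gave -0.11 ± 0.09 (edgeR adjusted p = 0.9999). Every stressed library except HC CUMS_M 1 and PFC CUMS_M 1 was below the lowest NAIVE library of either region, at 462 CPM. In the enrichment table Spi1 ran from 324 CPM in PFC VEH 3 to 492 in PFC EE 1, with overlapping groups in both regions.

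Irf8, an interferon regulatory factor that pairs with PU.1 on DNA, was the steadiest of the 9 in the minocycline table. It measured 769 and 709 CPM in PFC NAIVE, 700 and 700 in PFC CUMS and 732, 743 and 734 in PFC CUMS_M. In HC it measured 775 and 679 CPM in NAIVE, 740, 732 and 704 in CUMS, and 708, 667 and 675 in CUMS_M. Irf8 differed by -0.08 ± 0.09 on the log2 scale for PFC CUMS against NAIVE (edgeR adjusted p = 0.749) and by -0.003 ± 0.08 in HC, where the groups overlapped. Under enrichment it differed by 0.12 ± 0.11 in PFC and 0.10 ± 0.11 in HC, neither past the threshold. The highest Irf8 value of either table, 874 CPM, and the highest Spi1 of its table both came from PFC EE 1. Over the 12 enrichment libraries Spi1 and Irf8 had a Pearson r of 0.92, but over the 15 minocycline libraries only 0.36; the libraries of a table share their scaling and, in part, their group.

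Sall1 gave the smallest p-value of the 9 genes in HC CUMS against NAIVE. The HC NAIVE libraries held 1680 and 1578 CPM and the HC CUMS libraries 1316, 1412 and 1268. Every CUMS library lay below both NAIVE libraries. The log2 fold change was -0.29 ± 0.09 with a 95% interval from -0.47 to -0.11 (unadjusted p = 0.00277, rank 12 of 14579), and it did not pass adjustment over all genes (edgeR adjusted p = 0.9999, DESeq2 adjusted p = 0.696). In PFC Sall1 read 1564 and 1654 CPM in NAIVE and 1418 and 1398 in CUMS, again without overlap, with a log2 fold change of -0.19 ± 0.09 (edgeR adjusted p = 0.375). That PFC value of Sall1 was -0.02 with the covariate of other-cell markers and -0.12 without TMM, and in HC the covariate gave -0.22. With minocycline it was 1400, 1494 and 1494 CPM in PFC and 1432, 1377 and 1576 in HC, between or overlapping the CUMS and NAIVE values. No gene passed in HC CUMS against NAIVE, and the test of the difference between regions gave, for Sall1, -0.10 ± 0.13 (edgeR adjusted p = 0.970). In the enrichment table all HC EE libraries (1541, 1446 and 1625 CPM) were below all HC VEH libraries (1633, 1751 and 1870). The difference was -0.19 ± 0.11 (edgeR adjusted p = 0.632) and -0.07 with the covariate. Groups without overlap in either direction were seen there in 16.0% of all tested genes and in 1 of the 9 factors. In PFC the groups overlapped at -0.01 ± 0.11.

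Mef2a and Mef2c encode MADS-box factors that recognise the same AT-rich site; MEF2C restrains the inflammatory response of microglia. For HC CUMS_M against CUMS, Mef2a measured 574, 541 and 576 CPM with minocycline and 494, 483 and 506 without. All 3 minocycline libraries were higher, by 0.19 ± 0.08 on the log2 scale, with an unadjusted p of 0.0238 and an edgeR adjusted p of 1. HC NAIVE held 479 and 528 CPM, so that CUMS_M also lay above NAIVE (0.16 ± 0.09) and CUMS did not. Groups without overlap in either direction were seen in 10.3% of all tested genes for HC CUMS_M against CUMS and 17.7% for HC CUMS_M against NAIVE. In PFC Mef2a was 541 and 568 CPM in NAIVE, 527 and 465 in CUMS, and 518, 527 and 514 in CUMS_M, and the minocycline contrast was 0.07 ± 0.09. Mef2c was 434 and 389 CPM in PFC NAIVE, 358 and 361 in PFC CUMS and 403, 439 and 358 in PFC CUMS_M. CUMS lay below NAIVE by -0.20 ± 0.11 (edgeR adjusted p = 0.455), and without PFC NAIVE 1 by -0.10. In HC Mef2c overlapped between NAIVE (335 and 392 CPM), CUMS (352, 373 and 387) and CUMS_M (399, 366 and 392).

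Under enrichment in HC, Mef2a measured 475, 596 and 546 CPM in EE and 566, 609 and 804 in VEH. Only HC VEH 3 stood far above the rest. The log2 fold change was -0.29 ± 0.13 (unadjusted p = 0.0443, edgeR adjusted p = 0.467) and became -0.12 without HC VEH 3. Mef2c was highest in the same library, at 603 CPM against 477 and 446 in the other VEH libraries and 370, 509 and 456 in EE, with -0.19 ± 0.14 (edgeR adjusted p = 0.708). This Mef2c value was -0.05 without HC VEH 3, -0.06 without HC EE 1 and -0.30 without HC EE 2. In PFC neither gene differed beyond its spread: Mef2a differed by -0.003 ± 0.13 and Mef2c by -0.05 ± 0.14. Mef2a and Mef2c had a Pearson r of 0.53 over the 15 minocycline libraries and 0.86 over the 12 enrichment libraries, the latter with HC VEH 3 at the top of both.

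Runx1, a Runt-domain factor needed for blood and microglial progenitors and known in adult microglia for a part in the return to the ramified state, had the smallest p-value among all the values of the 9 genes. PFC CUMS libraries held 150 and 149 CPM and PFC NAIVE libraries 204 and 186. The CUMS values were nearly identical and below every other library of the table. The log2 fold change was -0.38 ± 0.11, a 23.3% lower level, with a 95% interval from -0.60 to -0.16 (unadjusted p = 0.00175, edgeR adjusted p = 0.100). The DESeq2 Wald test called it at -0.39 (adjusted p = 0.0285), where it called 348 genes or 2.39% of those tested, so the call depends on the test. Leaving out single libraries gave -0.45 to -0.30, and a covariate of other-cell markers gave -0.30 with an unadjusted p of 0.124.

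With minocycline the PFC libraries held 171, 199 and 194 CPM of Runx1, all above CUMS and overlapping NAIVE. CUMS_M against CUMS gave 0.33 ± 0.10 (unadjusted p = 0.00287, edgeR adjusted p = 0.372); it shares the PFC CUMS libraries with the contrast to NAIVE, so the 2 values do not support each other. CUMS_M against NAIVE gave -0.05 ± 0.10 (edgeR adjusted p = 0.832). Without PFC CUMS_M 3, the library with choroid plexus RNA, CUMS_M against CUMS was 0.31. In HC, Runx1 was 177 and 175 CPM in NAIVE, 165, 177 and 188 in CUMS, and 171, 179 and 187 in CUMS_M, with overlapping groups and a difference under CUMS of 0.004 ± 0.10. The test of the difference between regions gave 0.39 ± 0.14 for CUMS (unadjusted p = 0.0137, edgeR adjusted p = 0.643) and -0.31 ± 0.13 for minocycline (unadjusted p = 0.0259, edgeR adjusted p = 0.999), so a regional difference was not established. In the enrichment table Runx1 ran from 159 to 203 CPM and differed by 0.07 ± 0.11 in PFC and -0.02 ± 0.11 in HC.

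Cebpa, which encodes a bZIP factor of granulocyte and monocyte development that microglia also express, was the most variable factor under enrichment. PFC EE libraries held 941, 701 and 1078 CPM and PFC VEH libraries 731, 721 and 591. PFC EE 1 and PFC EE 3 were above all VEH libraries and PFC EE 2 lay among them. The log2 fold change was 0.41 ± 0.19 (unadjusted p = 0.0459, edgeR adjusted p = 0.986), and it ran from 0.27 without PFC EE 3 to 0.58 without PFC EE 2. Summed neutrophil genes were 2695 CPM in PFC EE 1 but 357 in PFC EE 3, the library with the most Cebpa, and monocyte genes were 198 and 31.4 CPM. Their part in the Cebpa value was not tested. In HC, EE (706, 777 and 875 CPM) and VEH (734, 882 and 527) overlapped at 0.14 ± 0.19 (edgeR adjusted p = 0.866). In the minocycline table Cebpa ran from 551 to 769 CPM, and all 6 treatment contrasts were between -0.14 and 0.12.

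Maf, a large MAF factor of tissue macrophages, was 842 and 796 CPM in PFC NAIVE, 718 and 795 in PFC CUMS and 776, 865 and 837 in PFC CUMS_M. The CUMS difference was -0.11 ± 0.10 (edgeR adjusted p = 0.652), and in HC it was 0.001 ± 0.09 with overlapping groups. Maf was as high as 941 CPM in HC VEH 3 and as low as 635 in PFC EE 2, and neither enrichment contrast passed. Bhlhe41, a basic helix-loop-helix repressor with a close relative in Bhlhe40, was 204 and 173 CPM in PFC NAIVE, 150 and 162 in PFC CUMS, and 165, 165 and 210 in PFC CUMS_M. CUMS lay below NAIVE by -0.27 ± 0.16 (edgeR adjusted p = 0.467), with an interval from -0.60 to 0.06. The Bhlhe41 value was -0.69 with the covariate of other-cell markers (edgeR adjusted p = 0.236) and -0.13 without PFC NAIVE 1. In HC Bhlhe41 was 222 and 171 CPM in NAIVE, 181, 215 and 209 in CUMS, and 229, 193 and 171 in CUMS_M, without a difference beyond the spread. Of its exon bases 19% are also covered by a gene on the opposite strand, Gm43909, and the strand setting of the counting is not given in the sources used here, so its level is less certain than those of the other 8 genes, where such cover is 5.34% or less and no exon is shared on the same strand.

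**Figure D3:**
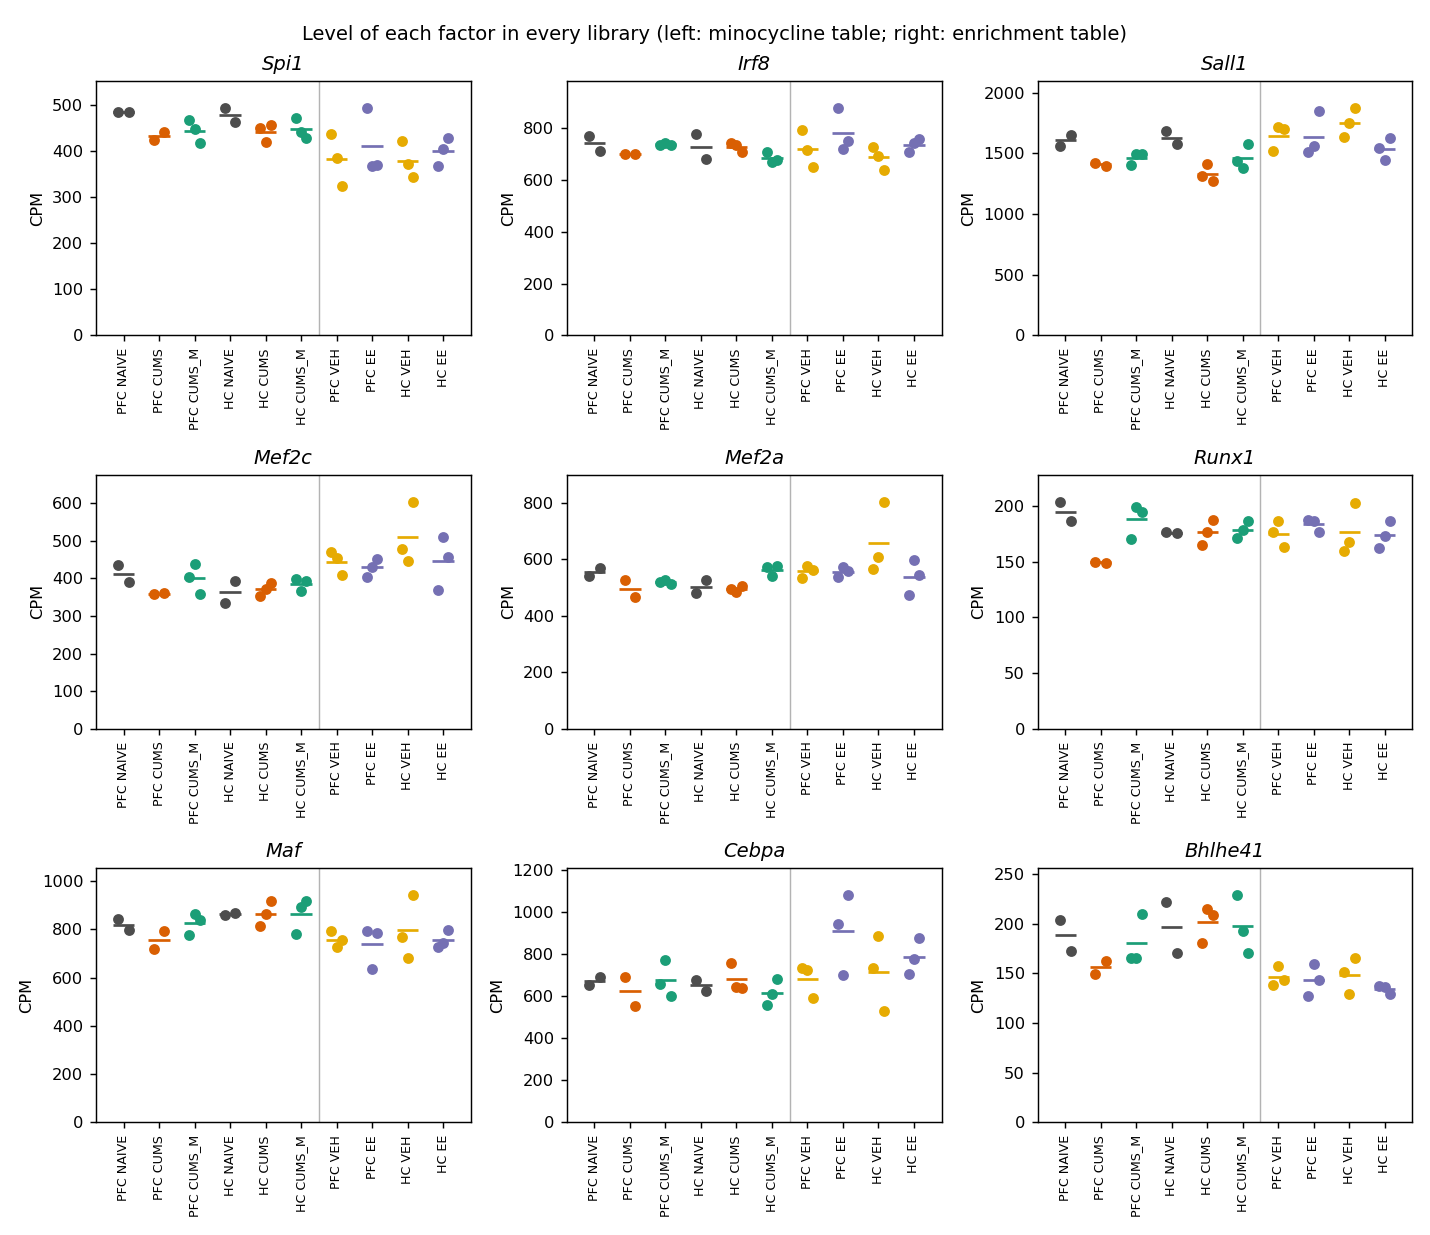
Level (CPM, axes from 0) of each factor in every library, by group, with 1 point per library and a bar at the group mean; the 6 groups left of the grey line are from the minocycline table and the 4 to its right from the enrichment table. Runx1 in PFC CUMS sits at 150 and 149 CPM below all other libraries, and HC VEH 3 stands apart in Mef2a at 804 and Mef2c at 603.

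In PFC CUMS against NAIVE all 9 fitted values were below 0 and none passed the threshold, with a median of -0.16 beside 0.02 over all tested genes, of which 47.2% were below 0. For 8 of the 9, both CUMS libraries lay below both NAIVE libraries, an order seen in 19.4% of all tested genes. Cebpa was the exception. Groups without overlap in either direction were seen in 43.6% of all tested genes in this contrast of 2 libraries against 2. The direction of all 9 held under the other scalings, with the median at -0.17 with DESeq2 size factors and -0.09, beside 0.10 for all genes, without TMM. Without PFC CUMS 2, 1 factor was above 0, and with the covariate of other-cell markers 2 were. In CUMS_M against CUMS, which reuses the PFC CUMS libraries, 9 of 9 values were above 0 (median 0.12 against 0.02), with 9 of 9 without PFC CUMS_M 3 (median 0.08), 7 of 9 when TMM was left out and 6 of 9 with the covariate. Only Irf8, Runx1 and Bhlhe41 had all CUMS_M libraries above both CUMS libraries, an order seen in 8.98% of all tested genes. In either direction, groups without overlap were seen there in 21.0% of all tested genes.

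RNA of other cells differed between the same libraries. The 8 astrocyte genes summed to 461 and 514 CPM in PFC CUMS and to 75.5 and 85.0 in PFC NAIVE, and 6 of the 8 were called higher; 3 of 8 endothelial and mural genes were called higher too, with sums of 158 and 186 against 72.0 and 87.5 CPM. The 8 neutrophil genes summed to 1497 and 1962 CPM in CUMS and 2807 and 4047 in NAIVE, with 0 called. The 8 border macrophage genes were higher, at 594 and 755 CPM in CUMS and 417 and 457 in NAIVE, with 0 called. The 6 monocyte genes were lower, at 129 and 180 CPM in CUMS and 185 and 264 in NAIVE, with 0 called. For PFC CUMS_M against CUMS the sums were 125 to 264 CPM of astrocyte genes beside 461 and 514, 253 to 378 of oligodendrocyte genes beside 652 and 686, and 69.0 to 91.3 of endothelial and mural genes beside 158 and 186. The groups of each sum did not overlap, and 1 of the 8 endothelial and mural genes was called lower. In these bulk samples fewer microglia in the sort and less of a transcript in each microglia cannot be told apart. The covariate of other-cell markers was made from the astrocyte, endothelial and mural, oligodendrocyte and neuron genes. The part of these cells was not tested beyond it. The covariate left out neutrophils, border macrophages and monocytes, and their part was not tested. Among 33 other myeloid regulators 27 were below 0 in PFC CUMS, with a median of -0.17 and 0 called. Among 22 microglial identity genes 18 were below 0, with a median of -0.17 and 0 called, so both medians were close to that of the 9 factors. Etv5 (an ETS factor, 192 ± 5.69 CPM in CUMS and 265 ± 21.0 in NAIVE, SD, n = 2 each) had the smallest edgeR adjusted p of the other regulators, 0.0654, and Cx3cr1, the fractalkine receptor, that of the identity genes, 0.172 at -0.28 ± 0.09.

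**Figure D4:**
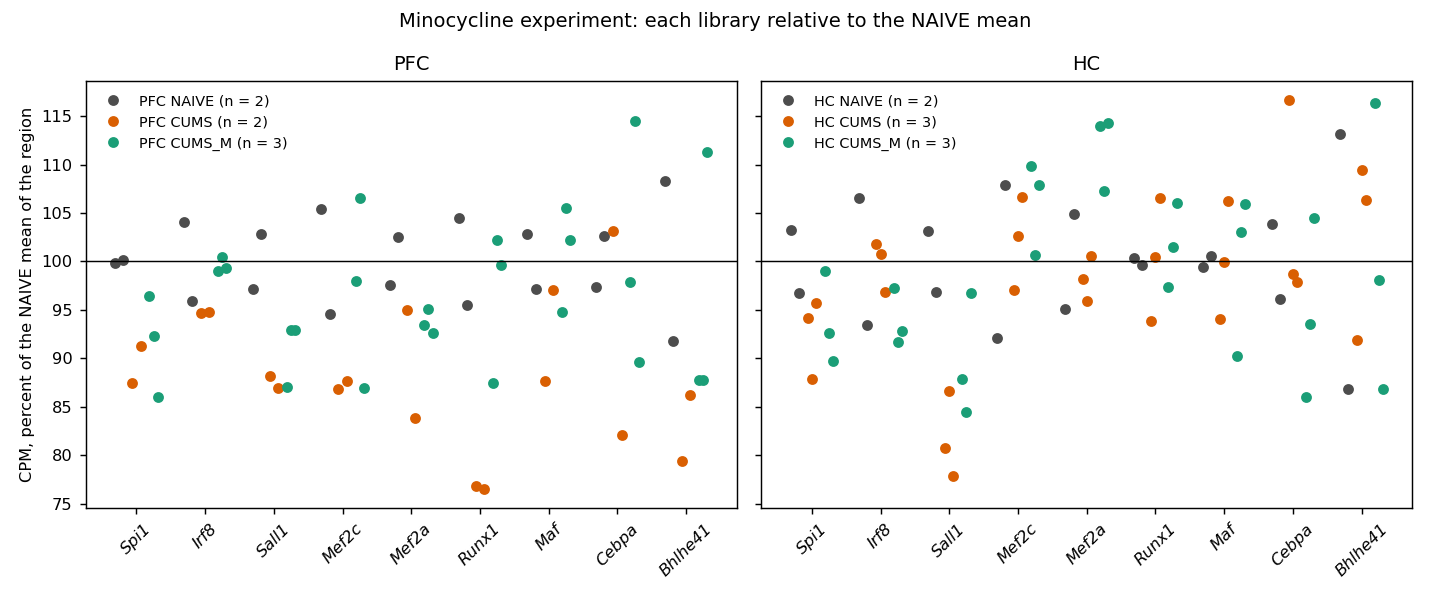
CPM of each factor in every library of the minocycline experiment as a percent of the NAIVE mean of the same region, for PFC (left) and HC (right), with 1 point per library. In PFC the CUMS points of all factors except Cebpa lie below both NAIVE points, most of all for Runx1; in HC Sall1 is the factor whose 3 CUMS points lie farthest below NAIVE.

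In HC 5 of 9 factors were above 0 for CUMS against NAIVE, with a median of 0.001. Their groups did not overlap for 2 of the 9, Sall1 and Spi1, beside 20.4% of all tested genes. Astrocyte genes were also higher there, at 277 to 321 CPM in CUMS and 134 and 175 in NAIVE, with 0 of 8 called. Oligodendrocyte genes were higher too, at 643 to 795 CPM in CUMS and 470 and 470 in NAIVE, with 0 of 8 called. Neutrophil genes were lower, at 136 to 383 CPM in CUMS and 615 and 1350 in NAIVE, with 0 of 8 called. For HC CUMS_M against CUMS 5 of 9 were above 0 with a median of 0.02, and for CUMS_M against NAIVE the counts were 2 of 9 in PFC and 4 of 9 in HC, with medians of -0.05 and -0.004. The difference of the CUMS value between regions, HC minus PFC, was above 0 for 8 of 9 factors with a median of 0.14, and none of the 9 passed. Over all tested genes the median was -0.04, with 54.3% below 0. This difference reuses the PFC CUMS values, which were below 0 for all 9, so it is not a separate result. For minocycline 2 of 9 differences were above 0 (median -0.13) and for EE 0 of 9 (median -0.12). Of the other regulators, Cebpb had the smallest p for HC minocycline, at 133 ± 10.8 against 196 ± 18.7 CPM (-0.56 ± 0.14, edgeR adjusted p = 0.582, SD, n = 3 each).

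In the minocycline experiment the 9 factors were close to equal between regions. All 9 regional values lay between -0.06 and 0.19, and all 9 intervals lay within 1.5-fold, while 744 of 14579 genes differed. Bhlhe41 had the largest difference toward HC, at 0.19 ± 0.08 (unadjusted p = 0.0353, edgeR adjusted p = 0.219). Its median was 201 CPM over 8 libraries in HC (171 to 229) and 165 over 7 in PFC (150 to 210). Within treatments the Bhlhe41 difference was 0.37 in CUMS, 0.13 in CUMS_M and 0.06 in NAIVE, and it was 0.23 without PFC CUMS_M 3 and 0.07 with the covariate. Maf followed at 0.11 ± 0.05 (edgeR adjusted p = 0.269), and Sall1 was equal at -0.02 ± 0.05. Of the 33 other regulators only Cebpb, a factor of inflammatory myeloid cells, passed, at 164 ± 32.4 CPM in HC and 96.8 ± 17.7 in PFC (SD, n = 8 and 7), a log2 fold change of 0.74 ± 0.09 (edgeR adjusted p = 0.000121). Of the 22 identity genes none passed, and Gpr34 came nearest at -0.44 ± 0.12 (edgeR adjusted p = 0.0627). In the enrichment experiment, with all 12 libraries, the regional values lay between -0.08 for Irf8 and 0.12 for Mef2c. Without the 6 libraries against their region label they ran from -0.36 for Cebpa to 0.30 for Mef2a, with Spi1 at -0.32 and Irf8 at -0.28. The enrichment values thus depended on which libraries were kept.

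In the enrichment contrasts, 6 of the 12 libraries went against their region label by choroid plexus genes at the limit of 100 CPM. Whether those labels are wrong was not tested. With all 12 libraries, 4 of 9 factors were above 0 for EE in PFC and 3 of 9 in HC (medians -0.003 and -0.08). Without the 6 libraries against their label, PFC VEH, PFC EE and HC VEH each kept 1 library and HC EE 3, with 2 residual degrees of freedom, and each lone library was assumed to vary like HC EE. The HC EE contrast then called 5.82% of 17382 genes, among them Mef2a at -0.56 (edgeR adjusted p = 0.0404) and Cebpa at 0.59 (edgeR adjusted p = 0.0439), each with HC VEH 3 alone as the control. HC VEH 3 is the library with the highest Mef2a and the lowest Cebpa of its table, and without it the values with the other libraries were -0.12 for Mef2a and -0.04 for Cebpa, so these calls rest on that 1 library. The regional contrast then called 11.8% of genes and 0 of the 9 factors, and Cebpa for PFC EE against VEH was 0.36 (edgeR adjusted p = 0.393). For HC EE the other 7 factors then had values of -0.42 for Mef2c, -0.30 for Maf, -0.29 for Bhlhe41, -0.27 for Sall1, -0.20 for Runx1, 0.22 for Irf8 and 0.23 for Spi1. For PFC EE they were -0.22 for Mef2c, -0.12 for Bhlhe41, -0.01 for Sall1, -0.002 for Maf, 0.003 for Mef2a, 0.08 for Runx1, 0.14 for Irf8 and 0.16 for Spi1. The factors above 0 numbered 5 of 9 in PFC and 3 of 9 in HC, with medians of 0.003 and -0.27.

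Other lists differed beside the HC enrichment values as well. The 8 astrocyte genes summed to 377 to 621 CPM in HC EE and 210 to 314 in HC VEH, the 8 oligodendrocyte genes to 456 to 809 and 237 to 304, and the 8 border macrophage genes to 581 to 801 and 348 to 450, all without overlap and with 0 called. The covariate of other-cell markers, which gave -0.25 for Mef2a, held astrocyte and oligodendrocyte genes but no border macrophage genes. The part of border macrophages in the Mef2a and Sall1 values was not tested, and that of the other cells was not tested beyond the covariate. In the other regulators Irf1 (145 ± 36.6 CPM in PFC EE and 87.7 ± 15.1 in PFC VEH, SD, n = 3 each) had the smallest p for PFC, at 0.72 ± 0.20 (edgeR adjusted p = 0.986), and Bhlhe40 for HC, at 9.41 ± 1.04 against 4.24 ± 1.37 CPM and 1.15 ± 0.32 (edgeR adjusted p = 0.166). Bhlhe41, its relative, was 137, 136 and 129 CPM in HC EE and 151, 130 and 165 in HC VEH, at -0.15 ± 0.11 (edgeR adjusted p = 0.741).

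The genes whose levels ran most like each factor were sought among 12497 genes tested in both tables, by the lower of the Pearson r over 15 and over 12 libraries. These r values describe libraries that share group, scaling and cell makeup, and carry no test. Runx1 was most like Fli1, an ETS factor of blood cells, at 0.80 and 0.78, then Irf2 and Sp2. Spi1 was most like Oxa1l (0.89 and 0.90), Hvcn1 and Ctsa, and Irf8 like Akt1s1 (0.83 and 0.86), Nop2 and Gnb2. Mef2a was most like Qk (0.85 and 0.93), Diaph2 and Sp1, and Mef2c like Zbtb33 (0.84 and 0.83), Tor1aip2 and Tmed5. Cebpa was most like Zfp36l2 (0.79 and 0.90), Dnajb1 and Il10ra. Sall1 (Ankrd44 at 0.69 and 0.75, Prdm2, Zbtb34), Maf (Ugcg at 0.67 and 0.72, Slc39a10, Fam3c) and Bhlhe41 (Kcnj2 at 0.64 and 0.67, Mthfd2l, Zfp697) had looser neighbours. No factor was among the 3 nearest genes of another.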

How the data were processed

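The authors deposited raw counts per gene in 1 table for each experiment, 15 and 12 libraries. Per the submitters' processing notes the tools were Trimmomatic 0.36, STAR 2.6.1b, Picard 2.17.1, featureCounts 1.5.3 and DESeq2 1.24.0 on mm10/GRCm38. The annotation release, strand setting and treatment of duplicates are not given in the sources used here. Identifiers were matched to GENCODE M21, with a symbol for 53326 of 53412 and 55154 of 55421.

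Each table was fitted on its own with edgeR 4.0.16 (filterByExpr, minimum count 10 and minimum total 15; TMM; robust quasi-likelihood F-test, 1 mean per group), in R 4.3.3. Adjusted p-values (Benjamini-Hochberg) cover every tested gene of a table, with calls at 0.05. The fit was tested on simulated data. All count columns were assigned to labelled samples (0 were not).

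The members and lists were chosen with earlier results of these data known. Named were the 9 members, up to 4 passing genes of the other-regulator and identity lists per contrast (or the 1 of smallest p), 3 genes most like each member and 5 defining markers. A gene that this rule names is not reported here. Alternatives were DESeq2 1.42.0 size factors and Wald test, no filter, a covariate of other-cell markers, a replicate block, only the compared groups, each library left out and, chosen after seeing the data, no TMM and no libraries against their region label. Equal replicate numbers met the limit for pairs only in PFC EE against VEH (r of deviations 0.36, 0.20 and 0.21, all above 0.1). This pairing comes from the data, not the labels.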

Additional observations from a re-analysis of the deposited data

How the results depend on the processing

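Over 13 contrasts the 117 values of the 9 factors were recomputed under 1863 alternatives, of which 1675 kept the sign and 188 did not. Only 3 were called, none of the 188, and the largest of the 188 was 0.30 in size. The count of factors called was 0 throughout except 1 for PFC CUMS against NAIVE with the DESeq2 Wald test (Runx1) and 2 for HC EE against VEH without the libraries against the region label (Mef2a, Cebpa, with HC VEH at 1 library). Leaving out single libraries gave 0 factors called in all contrasts. The replicate block, pairing equal numbers, called 0 factors in each contrast, and for Cebpa in PFC EE against VEH gave 0.40 (unadjusted p = 0.0739). Another scaling moved the median of all genes by at most 0.07. The number of genes called moved more: over the other alternatives it ran from 13 (without PFC CUMS 2) to 540 (without PFC NAIVE 2) beside 119 for PFC CUMS against NAIVE, 0 to 17 beside 0 in HC, 0 to 170 beside 3 for CUMS_M against CUMS in PFC and 0 to 36 beside 1 in HC, and 0 to 610 beside 13 for CUMS_M against NAIVE in PFC and 0 to 8 beside 0 in HC. It was 0 to 19 beside 0 for PFC EE, 0 to 441 beside 0 for HC EE, 199 to 1191 beside 744 for the regions in the minocycline experiment and 0 in all for enrichment, and for the regional differences 0 to 140 beside 0, 0 to 37 beside 1 and 0 to 8 beside 0. Without libraries against the region label it was 334 for PFC EE, 1012 for HC EE, 2051 for the regions and 472 for the regional difference in the enrichment experiment. What depth adds to the spread between libraries was not tested.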
